A study of Mus musculus with 30 samples.

Results

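The genes described here encode mitochondrial ribosomal proteins, and their members were chosen by name alone: every gene of the deposited table whose symbol is Mrpl or Mrps followed by a number and at most 1 letter. The rule used no measured value and found 78 of the 36103 genes in the table. The tissues were liver, heart, diaphragm and gastrocnemius, the last a calf muscle made mostly of fast fibres, and the mice were males of 5 weeks on a pure 129Pas background. Mtm1-/y mice, a constitutive knock-out of the phosphoinositide phosphatase myotubularin in every tissue, were compared with WT littermates. The 30 libraries, 1 per mouse and tissue, comprised 4 WT and 4 Mtm1-/y gastrocnemius, 4 WT and 3 Mtm1-/y diaphragm, 4 WT and 4 Mtm1-/y heart, and 3 WT and 4 Mtm1-/y liver libraries. Values are read counts per gene, with 24873817 to 44289343 counts per library.

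The mitochondrial ribosome translates the few messenger RNAs (mRNAs) of the mitochondrial genome, which code for core subunits of the respiratory chain and ATP synthase. Its RNAs come from the mitochondrial genome, while all of its proteins are encoded in the nucleus, made in the cytosol and imported. Some of the proteins have counterparts in bacterial ribosomes, and the others are specific to mitochondria. Striated muscle, and the heart above all, is rich in mitochondria.

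By these roles, 30 members are large subunit proteins of bacterial type and 21 are large subunit proteins specific to mitochondria, including Mrps30 and Mrps18a, which sit in the large subunit despite their names. A further 16 are small subunit proteins of bacterial type and 10 are small subunit proteins specific to mitochondria. Mrps36 keeps its name but is a component of the 2-oxoglutarate dehydrogenase complex and not of the ribosome. The 78 genes lie on 17 chromosomes, with the largest numbers on chromosome 11 (11 genes), chromosome 17 (8 genes) and chromosome 6 (7 genes). A set of 77 members passed the filter on low counts in every comparison. Mrpl53 did not pass in any, and its highest level in a library was 0.0906 CPM, that is, read counts scaled to library size. All of its exon sequence is shared with another annotated gene on the same strand, and reads that fit 2 genes had not been counted.

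Short motifs known from nuclear genes of mitochondrial proteins were counted in their promoters (RefSeq, build GRCm38.p6, 250 bases before to 50 bases after the start, both strands). A promoter was held for 69 of the 78 members, and the windows of Mrpl46 and Mrps11, on opposite strands of chromosome 7, overlapped. The NRF1 motif was found in 18.8% of these members and in 7.17% of 17492 protein-coding genes. The ETS motif CCGGAAG, the core bound by GABP, was found in 37.7% of the members and 12.9% of the protein-coding genes. For the YY1 motif AAGATGGC the shares were 17.4% and 3.57%, and for the ERR motif CAAGGTCA 2.90% and 1.56%. The median GC content was 58.7% over the 75 member promoters and 56.3% over protein-coding promoters. These matches are a description of the letters and not of binding. The following windows run from 120 bases before to 30 bases after the RefSeq start of 4 members that were lower in the Mtm1-/y gastrocnemius (described further down), and are shown because each holds at least 1 of the motifs. Of the other members lower there, the promoters of Mrpl18, Mrpl42 and Mrpl49 held a motif. Those of Mrpl1, Mrpl16, Mrpl47, Mrpl50 and Mrps5 held none, and a link between motifs and the fall was not tested. Capitals mark the motif letters on either strand, and no match overlaps another.
Mrpl30, chr1:37890357-37890506, plus strand, with an NRF1 match: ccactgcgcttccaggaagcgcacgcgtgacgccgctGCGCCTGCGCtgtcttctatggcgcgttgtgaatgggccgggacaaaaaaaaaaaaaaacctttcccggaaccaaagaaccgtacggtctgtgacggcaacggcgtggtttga
Mrpl51, chr6:125192080-125192229, plus strand, with an ETS match: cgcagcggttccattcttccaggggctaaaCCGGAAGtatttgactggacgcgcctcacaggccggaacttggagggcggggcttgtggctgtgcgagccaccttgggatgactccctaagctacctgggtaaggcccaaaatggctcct
Mrps21, chr3:95871485-95871634, minus strand, with NRF1, ERR and ETS matches: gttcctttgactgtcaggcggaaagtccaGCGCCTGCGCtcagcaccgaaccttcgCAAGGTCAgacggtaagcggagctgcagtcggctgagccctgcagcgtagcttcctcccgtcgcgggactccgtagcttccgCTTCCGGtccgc
Mrps27, chr13:99344666-99344815, plus strand, with ETS and YY1 matches: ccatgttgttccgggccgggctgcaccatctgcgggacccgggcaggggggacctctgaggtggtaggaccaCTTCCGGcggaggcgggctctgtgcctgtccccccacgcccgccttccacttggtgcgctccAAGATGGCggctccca

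Levels below are CPM after scaling of all libraries by TMM, and SD is the spread between libraries. The summed level of the 78 genes ran from 2921 to 3234 CPM in WT gastrocnemius, from 2714 to 3007 CPM in WT diaphragm, from 2109 to 3000 CPM in WT heart and from 2492 to 2816 CPM in WT liver. In the Mtm1-/y libraries it ran from 2529 to 2953 CPM in the gastrocnemius, from 2638 to 2849 CPM in the diaphragm, from 2666 to 2975 CPM in the heart and from 2448 to 2665 CPM in the liver. All 4 pairs of genotype ranges overlapped. Over the same libraries the share of counts from the mitochondrial genome, whose mRNAs this ribosome translates, ran from 3.49% in a WT liver to 17.5% in an Mtm1-/y heart. The order of the tissues by the members' sum depends on the scaling. As a plain share of all counts, the members made up 0.203% to 0.223% in WT liver, 0.235% to 0.252% in WT gastrocnemius, 0.269% to 0.345% in WT heart and 0.306% to 0.349% in WT diaphragm, so that liver and gastrocnemius were below the other tissues without overlap.

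**Figure D1:**
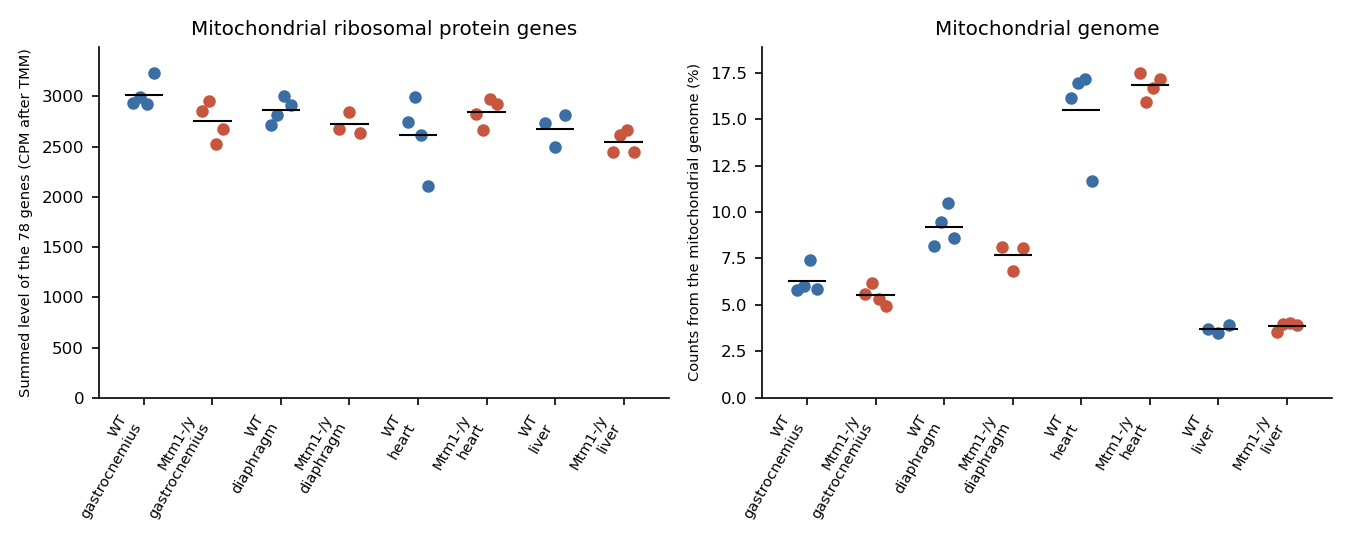
Left, summed level of the 78 mitochondrial ribosomal protein genes per library (CPM after TMM); right, share of all counts that come from the mitochondrial genome (%). Points are libraries (blue WT, red Mtm1-/y) and lines are group means. The sums lie between 2109 and 3234 CPM in all 30 libraries, while the mitochondrial share is 3.49% to 4.02% in liver and 11.7% to 17.5% in heart.

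Facts of the libraries bear on these values. Mtm1 checked the labels: it was at 15.8 to 26.9 CPM in the WT libraries and at 3.49 to 8.19 CPM in the Mtm1-/y libraries, with no overlap in any tissue. WT heart 4 stood apart. Its members summed to 2109 CPM against 2617 to 3000 CPM in the other WT hearts, and its mitochondrial share was 11.7% against 15.9% to 17.5% in the other 7 hearts. In that library 71 of the 77 members lay below their group mean. Its slow fibre markers summed to 6259 CPM, against 11884 to 14354 CPM in the other WT hearts. Its cardiomyocyte markers summed to 51370 CPM, against 35973 to 43683 CPM. Alb, the albumin gene made by hepatocytes, ran from 284 to 31876 plain CPM in the diaphragms and was above 10000 in 4 of 7 libraries (WT 1, 2 and 4 and Mtm1-/y 2). The defining markers of each labelled tissue were found in it.

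The ratio of large to small subunit mRNA does not depend on how libraries are scaled. The summed CPM of large subunit genes was 2.59 to 2.63 times that of small subunit genes in WT gastrocnemius and 2.59 to 2.62 times in Mtm1-/y gastrocnemius. It was 2.63 to 2.68 in WT and 2.59 to 2.67 in Mtm1-/y diaphragm, and 2.56 to 2.63 in Mtm1-/y heart. WT heart gave 2.56 to 2.61 in 3 libraries and 2.41 in WT heart 4. Liver was lower, at 2.40 to 2.53 in WT and 2.43 to 2.48 in Mtm1-/y. Genotypes overlapped in each tissue.

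Members also moved together between mice of the same group. The deviation of each member's log2 CPM from its group mean was correlated with the mean deviation of the other members over the 30 libraries, which share their scaling factors, so the values are a description only. The median r was 0.70, and 68 of 77 members were above 0.5. Mrps18a (0.92) and Mrpl37 (0.91), both large subunit proteins, had the highest r. The lowest were Mrps6 (-0.43), Mrpl52 (0.05), Mrps12 (0.10) and Mrpl23 (0.12). These 4 were singled out after their values were seen. Without WT heart 4 the median was 0.60 and Mrps6 was at -0.02.

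The first comparison asks what loss of myotubularin does to these mRNAs in the gastrocnemius. Of the 77 members tested, 12 were lower in Mtm1-/y and 0 were higher at an adjusted p under 0.05 (edgeR's quasi-likelihood test, Benjamini-Hochberg adjustment over 15456 genes). Over all genes tested the same rule called 14.9% lower and 14.1% higher. The members' share of lower calls, 12 of 77, was therefore near the background, while the background share of higher calls had no counterpart among them. The median log2 fold change was -0.11 over the members and 0.02 over all genes, and 76.6% of members against 48.2% of all genes lay below 0. The members' median was -0.06 without Mtm1-/y gastrocnemius 3, and from -0.13 to -0.08 with any other library left out. Changes were small, from -0.47 to 0.50 on the log2 scale, and no member passed an absolute log2 fold change of 1. In bulk tissue, fewer cells of a type and less RNA per cell cannot be told apart.

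The direction of these calls depends on the scaling. Counts divided by library totals alone gave 45 of 77 members higher and 0 lower, against 49.5% and 4.19% of all genes, with a median log2 fold change of 0.22 over the members and 0.35 over all genes. The members' median lay below the median of all genes by 0.13 under both scalings, since scaling moves all genes nearly alike. Members minus all genes was -0.11 with voom, -0.19 with no filter and -0.08 without Mtm1-/y gastrocnemius 3. As a plain share of all counts, the members made up 0.235% to 0.252% in WT and 0.272% to 0.304% in Mtm1-/y gastrocnemius. The TMM factors were 0.778 to 0.858 in WT and at least 1.02 in Mtm1-/y. What follows is therefore relative to the bulk of genes in each library.

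The large subunit held 9 of the 12. Mrpl42, a large subunit protein specific to mitochondria (chromosome 10, 95480805 to 95501940, mm10), had the smallest p. Its level was 138, 153, 146 and 151 CPM in the WT libraries and 108, 121, 105 and 108 CPM in the Mtm1-/y libraries. The groups did not overlap, and the log2 fold change was -0.40 (SE 0.07, adjusted p = 0.0019). Mrpl50, also specific to mitochondria (chromosome 4, 49512596 to 49521093), was at 66.4, 66.1, 69.1 and 66.7 CPM in WT and at 49.5, 56.8, 48.1 and 50.4 CPM in Mtm1-/y. All 4 Mtm1-/y values lay below the lowest WT value, and the log2 fold change was -0.38 (SE 0.06, adjusted p = 0.0024).

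Mrpl30, the counterpart of bacterial L30 whose promoter is shown above (chromosome 1, 37890477 to 37898535), was at 88.4, 107, 99.7 and 97.9 CPM in WT and at 76.2, 84.3, 77.6 and 71.2 CPM in Mtm1-/y. The groups did not overlap (log2 fold change -0.33, SE 0.08, adjusted p = 0.010). Mrpl51, whose promoter holds an ETS match (chromosome 6, 125191801 to 125196269), was at 76.8, 88.3, 77.6 and 86.0 CPM in WT and at 70.2, 71.6, 62.5 and 60.0 CPM in Mtm1-/y. Again every Mtm1-/y library was below every WT library (log2 fold change -0.30, SE 0.08, adjusted p = 0.016). Mrpl16, the counterpart of bacterial L16 near the catalytic centre, fell from a mean of 43.9 ± 3.30 CPM (SD, n = 4) to 35.5 ± 3.08 CPM (SD, n = 4), with adjusted p = 0.020 in edgeR. Mrpl1, a protein of the L1 arm of the large subunit, fell from 39.9 ± 2.16 to 31.7 ± 3.79 CPM (SD, 4 libraries each), and 1 of the 4 Mtm1-/y libraries, at 37.2 CPM, was above the lowest WT library at 37.0 CPM.

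The other 3 large subunit members called lower were Mrpl47, a protein at the exit of the nascent chain tunnel, at means of 29.8 ± 0.880 CPM for WT against 24.2 ± 2.89 CPM for Mtm1-/y (SD, n = 4), Mrpl18 at 80.9 ± 1.84 and 68.8 ± 5.86 CPM, and Mrpl49 at 31.0 to 36.6 and 27.1 to 29.8 CPM. None of them overlapped between the genotypes. Of the 6 genes listed as tunnel exit proteins, Mrpl47 was the 1 called. None of the 3 stalk proteins Mrpl10, Mrpl11 and Mrpl12, which recruit translation factors, was called, and their log2 fold changes lay from -0.12 to -0.06.

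In the small subunit, 3 members fell. Mrps21 (chromosome 3, 95862634 to 95871519) was at 45.0, 52.2, 54.0 and 48.5 CPM in WT and at 41.2, 40.5, 36.3 and 40.4 CPM in Mtm1-/y. The groups did not overlap, and the log2 fold change was -0.32 (SE 0.08, adjusted p = 0.011). Mrps27, an RNA-binding protein specific to the mitochondrial small subunit (chromosome 13, 99344786 to 99415562), was at 52.2, 48.7, 46.3 and 53.0 CPM in WT. In Mtm1-/y it was at 38.8, 45.7, 38.5 and 37.3 CPM, all below the lowest WT value (log2 fold change -0.31, SE 0.08, adjusted p = 0.016). Mrps5, the counterpart of bacterial S5, fell from 31.0 ± 1.84 to 25.6 ± 2.87 CPM (SD, 4 libraries each), with an adjusted p of 0.048 in edgeR and overlapping groups.

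By role, 5 of 30 large subunit members of bacterial type were called lower, 4 of 20 tested large subunit members specific to mitochondria, 2 of 16 small subunit members of bacterial type and 1 of 10 small subunit members specific to mitochondria. The medians of these roles were -0.12, -0.04, -0.10 and -0.12 on the log2 scale. The call counts were small in each role and were not compared by a test. Without overlap between genotypes, 13 members (16.9%) were lower in Mtm1-/y against 16.8% of all genes, and 0 were higher against 13.8% of all genes. Mrps36, the oxoglutarate dehydrogenase component, had the lowest log2 fold change of the 77 (-0.47, SE 0.16) without being called (adjusted p = 0.052, edgeR). Mrpl52 had the highest (0.50), with 10.5, 11.5, 9.70 and 17.4 CPM in WT and 25.2, 14.5, 14.5 and 14.5 CPM in Mtm1-/y, and its groups overlapped.

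**Figure D2:**
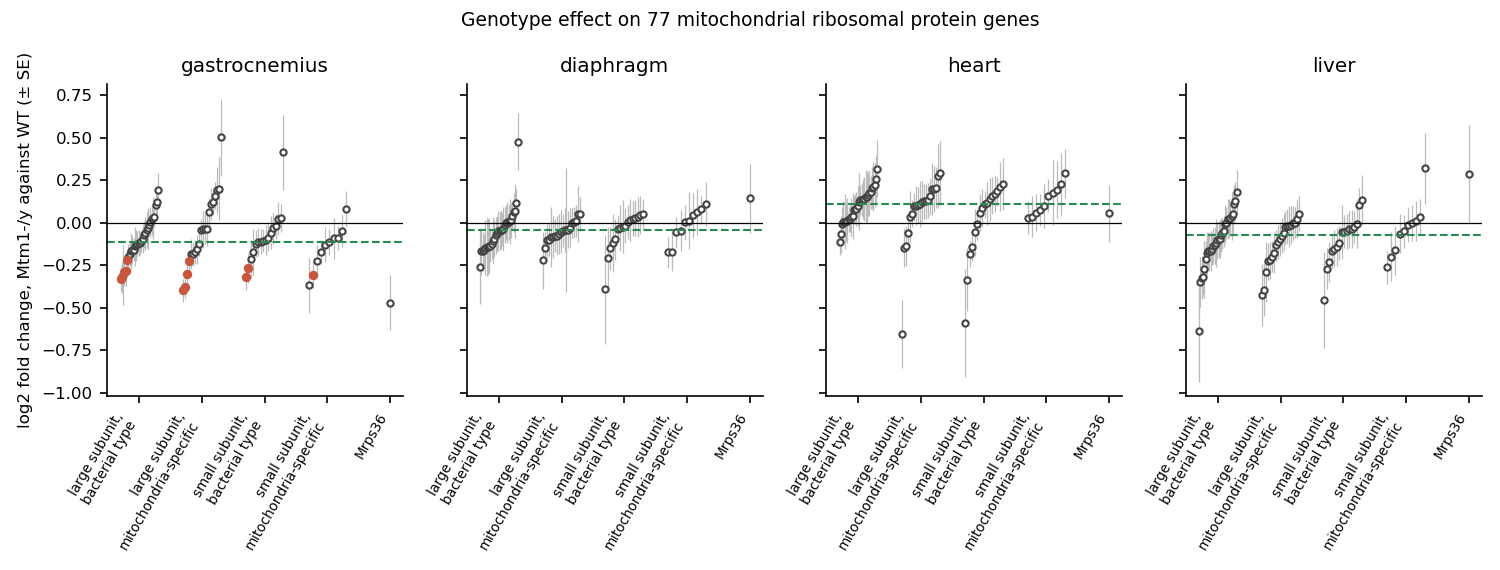
Log2 fold change of Mtm1-/y against WT (± SE) for the 77 tested members in each tissue, grouped by role. Red points are members called at an adjusted p under 0.05 (edgeR), open points are not called, and the dashed line is the median of the members. The 12 called members are all in the gastrocnemius and below 0.

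Other genes of the pathway were counted in the same gastrocnemius comparison, in which 14.9% of all genes were lower and 14.1% higher. In lists this short, counts such as 5 of 26 or 2 of 12 lie near that share. Of the 5 ribosomal proteins with other names, 2 fell: Dap3, a GTP-binding small subunit protein, from 59.1 to 71.0 CPM in WT to 45.2 to 54.3 CPM in Mtm1-/y, and Ptcd3 from 84.9 to 88.9 to 60.8 to 77.2 CPM. Of 26 assembly factors 5 fell and 0 rose, among them Fastkd2, an RNA-binding assembly factor, at -0.45 on the log2 scale (SE 0.09, adjusted p = 0.0039), Ybey (-0.41) and Malsu1 (-0.30). Of 12 translation factors 2 fell and 0 rose: Gfm2, which recycles the ribosome after termination, at -0.41 and Taco1, an activator of Co1 translation, at -0.48. Of 20 mitochondrial aminoacyl-tRNA synthetases and amidotransferase subunits 8 fell and 0 rose, led by Fars2 (-0.39), Iars2 (-0.28) and Gatb (-0.44). Medians were -0.03, -0.11, -0.22 and -0.20 on the log2 scale in these 4 lists.

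The mRNAs that the ribosome translates were lower too. Of 13 mitochondrial mRNAs 7 were tested, since the others were at or near 0 or not used here, and all 7 fell. Their log2 fold changes ran from -0.92 to -0.46, with mt-Nd4 at -0.55 (SE 0.11), mt-Nd2 at -0.60 (SE 0.12) and mt-Nd1 at -0.53 (SE 0.10). Of 9 factors of mitochondrial DNA expression, 1 fell (Polg, the DNA polymerase, -0.20). Of 12 nuclear regulators Ppargc1a, the coactivator PGC-1 alpha, fell from 33.7 to 39.6 CPM in WT to 17.6 to 26.7 CPM in Mtm1-/y, while Myc rose from 2.85 to 4.86 CPM to 6.13 to 12.8 CPM. Nrf1, Gabpa and Yy1, which code for the factors of the motifs above, were not called. Esrra ranged over 96.4 to 123 CPM among WT and 72.7 to 93.8 CPM among Mtm1-/y libraries without being called (adjusted p = 0.057, edgeR).

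Markers of cell types moved in the same comparison. Of the 7 fast fibre genes, 6 fell and 1 rose, and their summed level was 192104 to 230669 CPM in WT and 119728 to 129887 CPM in Mtm1-/y gastrocnemius. All 7 macrophage genes rose, from a sum of 41.3 to 70.2 CPM to one of 139 to 179 CPM. Of the other lists, 3 of 5 fibroblast genes, 5 of 8 white adipocyte genes, 2 of 5 tested brown adipocyte genes and 2 of 4 tested cardiomyocyte genes rose, 1 of 6 slow fibre genes and 1 brown adipocyte gene fell, and of 12 hepatocyte genes 1 rose and 2 fell. Summed levels did not always follow these counts. White adipocyte genes summed to 3093 to 4482 CPM in WT and 2497 to 3365 CPM in Mtm1-/y. Mean sums of brown adipocyte and cardiomyocyte genes were lower in Mtm1-/y too, and that of fibroblast genes was higher. No defining marker of fast fibres was at 0 in either group. The part of these shifts in the members' values was not tested.

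**Figure D3:**
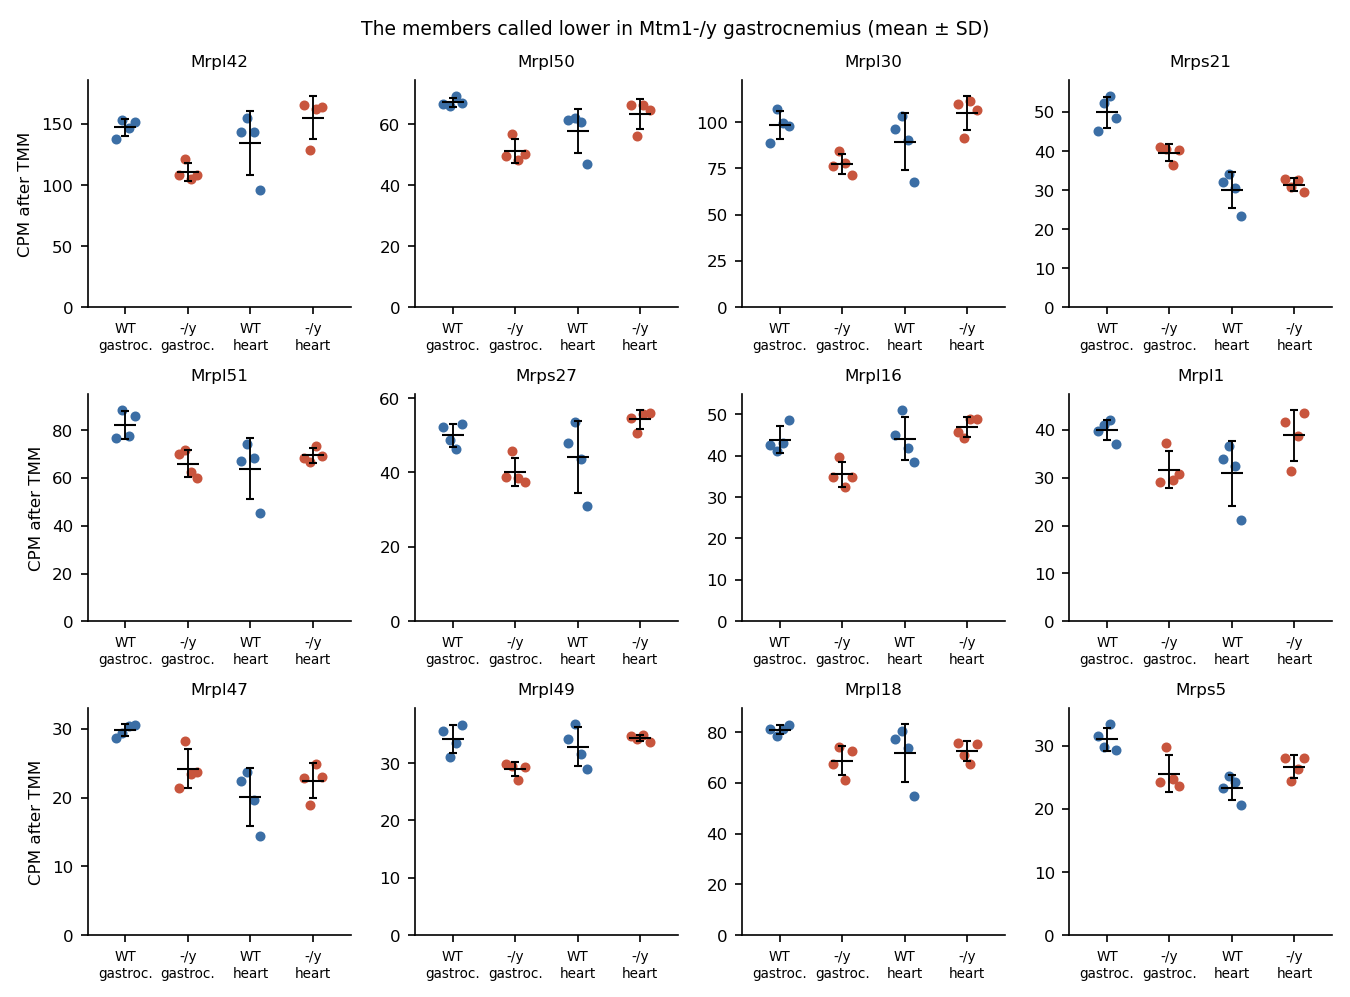
Level of the 12 members called lower in Mtm1-/y gastrocnemius, per library (CPM after TMM, points; blue WT, red Mtm1-/y), with mean ± SD, in gastrocnemius and heart. In the heart panels the lowest WT point of each gene is WT heart 4.

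In the heart, 0 of 77 members were called (edgeR), against 0.0% of 15238 genes higher and 0.00656% lower. DESeq2 called 0 members as well, against 0.102% of all genes higher and 0.359% lower. In edgeR 2 members, Mrpl52 and Mrps28, had an unadjusted p under 0.05. No member was without overlap between genotypes in either direction, against 2.03% of all genes lower and 2.15% higher. The median member change was 0.11 on the log2 scale, with 64 members above 0, while all genes were centred near 0. Without WT heart 4 the median was 0.03 and 46 members were above 0. The heart therefore gave a shift of the opposite sign that rested largely on 1 WT library. White adipocyte markers summed to 108 to 297 CPM in WT and 54.5 to 88.7 CPM in Mtm1-/y hearts without overlap, with all 8 genes below 0 and a median log2 fold change of -2.58. All 5 fibroblast genes were below 0 as well, with sums of 1395 to 3189 CPM in WT and 1458 to 1694 CPM in Mtm1-/y, and none of these markers was called. The highest sum of both lists was that of WT heart 4, and the fibroblast sums of the other WT hearts were 1395 to 2166 CPM. The part of these markers in the result was not tested. The 4 members of smallest p were Mrpl52 at -0.66 (SE 0.20), Mrps28 at -0.18 (SE 0.08), Mrps5 at 0.18 (SE 0.08) and Mrps27 at 0.29 (SE 0.14), each with an adjusted p of 0.55 in edgeR. Mrpl52 was at 9.02, 7.98, 6.38 and 12.2 CPM in WT and at 5.38, 6.91, 5.15 and 5.29 CPM in Mtm1-/y hearts.

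In the diaphragm, edgeR called 0 members, against 0.0% of 16796 genes higher and 0.0119% lower, and 1 was at an unadjusted p under 0.05. DESeq2 also called 0 members, against 1.72% of its 18379 genes higher and 0.675% lower. That member was Mrpl23, a tunnel exit protein. It was at 1.43, 1.56, 1.62 and 1.31 CPM in WT and at 1.86, 2.03 and 2.19 CPM in Mtm1-/y, without overlap but at an adjusted p of 0.39 (edgeR). Mrps31 (-0.17), Mrpl1 (-0.16) and Mrpl49 (-0.15) followed. No overlap between genotypes was seen for 6 members lower in Mtm1-/y (7.79%, against 5.53% of all genes) and 1 higher (1.30%, against 4.41%). The median member change was -0.04. It was 0.0014 without WT diaphragm 3, -0.08 without Mtm1-/y diaphragm 2, and -0.18 without the 4 libraries with high Alb, which leaves 1 WT and 2 Mtm1-/y libraries. The spread between diaphragm libraries was the widest of the 4 tissues, with a common biological coefficient of variation of 0.394 against 0.171 in the gastrocnemius. Fibroblast markers summed to 1560 to 3161 CPM in WT and 3301 to 6649 CPM in Mtm1-/y diaphragm without overlap, with all 5 genes above 0 (median 1.31 on the log2 scale). All 8 white adipocyte genes were below 0 (median -0.94), and all 12 hepatocyte genes too (median -0.36). None of these markers was called, and their part in the members' values was not tested.

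In the liver, edgeR called 0 members, against 0.0% of 14305 genes in either direction, and 6 were at an unadjusted p under 0.05, all lower in Mtm1-/y. DESeq2 called 0 members, against 0.0299% of its 16732 genes higher and 0.120% lower. Mrpl2, the counterpart of bacterial L2, had the smallest p. It was at 46.3, 46.6 and 52.0 CPM in WT and at 40.6, 41.0, 38.3 and 35.6 CPM in Mtm1-/y, without overlap, at -0.32 on the log2 scale (SE 0.10), with an adjusted p of 0.97 (edgeR). Mrps34 (-0.26), Mrpl28 (-0.32) and Mrpl54 (-0.39) came next, at the same adjusted p. Without overlap, 8 members were lower in Mtm1-/y (10.4%, against 3.33% of all genes) and 0 were higher (against 2.22%). The median was -0.07 over members and 0.01 over all genes, and -0.13 over members without WT liver 2. All 7 macrophage genes were below 0 (median -0.44), with none called, and their part in the result was not tested. Mtm1 itself was at a log2 fold change of -1.60 (SE 0.23) in this tissue with an adjusted p of 0.37 (edgeR), so that even the deleted gene was not called in this fit. The paper, which used DESeq2, did report Mtm1 as differentially expressed in liver.

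Whether the effect differs between cardiac and skeletal muscle was tested directly, as the genotype effect in heart minus that in gastrocnemius. Of 77 members, 8 were higher and 1 was lower at an adjusted p under 0.05 (edgeR), against 9.94% and 9.89% of 16627 genes. The share of higher calls was near the background. Of these 8, 7 also belong to the 12 that fell in the gastrocnemius: Mrpl1, Mrpl16, Mrpl30, Mrpl42, Mrpl50, Mrps5 and Mrps27. The difference contains the gastrocnemius effect and uses the same libraries, so this overlap is in part built in and is not separate evidence. The differences were 0.52 for Mrpl50 (SE 0.12, adjusted p = 0.0099), 0.47 for Mrps5 (SE 0.12, adjusted p = 0.015) and 0.66 for Mrpl1 (SE 0.20, adjusted p = 0.033). Mrpl42 shows the form of the difference. It was at 143, 155, 143 and 95.9 CPM in WT hearts and at 165, 129, 162 and 164 CPM in Mtm1-/y hearts, so that the heart groups overlapped while the gastrocnemius groups did not. Mrpl3, a large subunit protein whose human counterpart is mutated in a cardiomyopathy, was the other (0.38, SE 0.13, adjusted p = 0.045).

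Mrpl52 went the other way, with a difference of -1.14 (SE 0.33, adjusted p = 0.025, edgeR): 0.50 in gastrocnemius and -0.66 in heart. The median of this difference was 0.23 over members and -0.03 over all genes, and 0.11 over members without WT heart 4. Without that library 6 members were higher and 1 was lower, against 1355 and 1346 of 16867 genes. Library totals alone gave 0 members higher and 20 of 77 lower, against 2.44% and 39.6% of all genes, with medians of -0.18 over members and -0.44 over all genes. Scaling moves all genes nearly alike, so the members lay 0.26 above all genes under both scalings. Members minus all genes was 0.18 with voom, 0.33 with no filter and 0.15 without WT heart 4. The difference between heart and diaphragm gave 0 called members in edgeR, against 0.00573% of 17466 genes higher and 0.0% lower, with Mrps31 at 0.35 and Mrpl1 at 0.49 having the smallest p. In that comparison 2 members were at an unadjusted p under 0.05. DESeq2 called 0 members against 0.236% of its genes higher and 1.00% lower, and voom 0 against 1.42% and 2.71%.

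**Figure D4:**
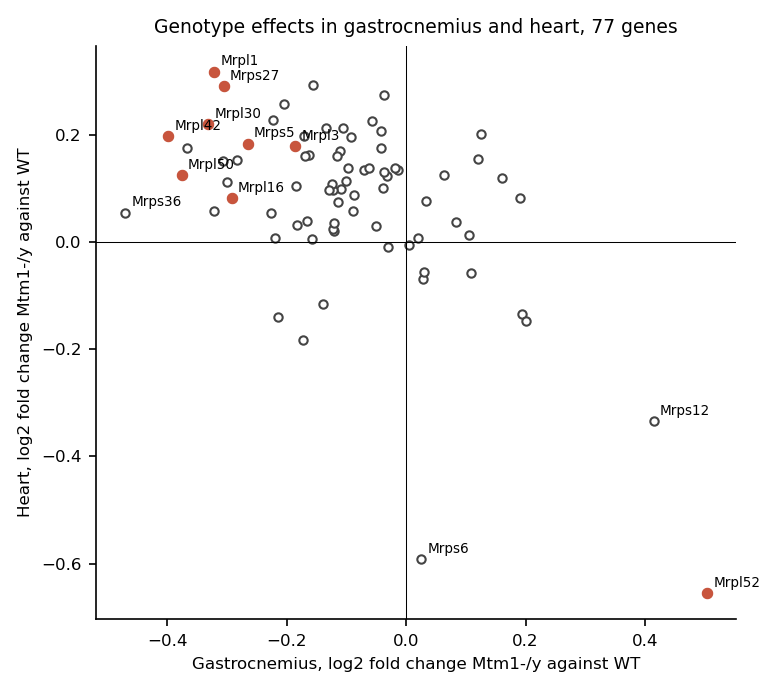
Genotype effect (log2 fold change of Mtm1-/y against WT) in heart against that in gastrocnemius for the 77 tested members. Red points are the 9 members whose effects differed between the 2 tissues (edgeR). A total of 55 members lie below 0 in gastrocnemius and above 0 in heart, 40 without WT heart 4. The same count was not made over all genes. At the lower right, 9 members lie above 0 in gastrocnemius and below 0 in heart, among them Mrpl52.

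Across the 77 members, effects in gastrocnemius and heart had a Pearson r of -0.528, and -0.499 without WT heart 4. Mrpl52, Mrps12 and Mrps6 lie at the far end of this relation, and members of a tissue share its libraries. The 2 tissues share no library, but the labels do not say whether they share mice. Between gastrocnemius and diaphragm r was -0.145, and 39 members were below 0 in both. These r values and counts were not computed over all genes, so how usual they are in these libraries is not known.

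WT tissues were compared next. Of 77 members, 7 were higher and 38 lower in WT heart than in WT gastrocnemius (edgeR), against 35.5% and 32.7% of 15667 genes. The median was -0.29 over members and 0.06 over all genes. With library totals alone the split was 39 higher and 3 lower, against 63.7% and 15.6% of all genes, with medians of 0.31 and 0.67. Members lay 0.35 below all genes under both scalings, since scaling moves all genes nearly alike. Members minus all genes was -0.28 with voom and -0.24 without WT heart 4. The higher members named here are higher under both scalings, and the lower ones are lower relative to other genes.

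Mrps6, the counterpart of bacterial S6, had the largest rise in heart when all libraries were used. It was at 9.70, 9.59, 8.76 and 10.1 CPM in WT gastrocnemius and at 19.9, 14.2, 17.8 and 43.3 CPM in WT heart. The groups did not overlap, but the highest value was WT heart 4: the log2 fold change was 1.28 (SE 0.32, adjusted p = 0.0053) with that library and 0.81 without it. A share of 36.1% of its exon sequence overlaps another gene on the same strand, so its count is uncertain. Mrps35, a small subunit protein specific to mitochondria, was at 25.5 to 28.3 CPM in gastrocnemius and 36.2 to 55.1 CPM in heart (0.79, SE 0.12, adjusted p = 0.00031). Without WT heart 4 the log2 fold change of Mrps35 was 0.90, above that of Mrps6. Mrpl39 (0.61) and Mrps9 (0.55) were also higher. Mrpl41 was at 0.32, and DESeq2 did not call it.

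Of the lower members, Mrps10, the counterpart of bacterial S10, was at 24.8, 23.8, 22.0 and 29.7 CPM in WT gastrocnemius and at 12.3, 14.1, 13.0 and 12.3 CPM in WT heart. Every heart was below every gastrocnemius (ratio 0.499, adjusted p = 1.7e-05, edgeR). Mrpl17, a tunnel exit protein, was at -0.87 (SE 0.10), Mrps28 at -0.83 (SE 0.12), Mrps7 at -0.82 (SE 0.10) and Mrps12 at -0.79 (SE 0.22). By role, 13 of 30 and 10 of 20 large subunit members were lower, and 11 of 16 and 4 of 10 small subunit members, in the order of bacterial type and specific to mitochondria. All 6 cardiomyocyte markers were higher and all 7 fast fibre markers were lower in heart.

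Between WT diaphragm and WT gastrocnemius, 6 members were higher and 20 lower (edgeR), against 30.6% and 26.5% of 15952 genes. The median was -0.11 over members and 0.04 over all genes. Mrps35 (0.50, SE 0.08, adjusted p = 0.00099), Mrpl41 (0.40), Mrps9 (0.38), Mrpl24 (0.24) and Mrpl44 (0.22) were the higher members of largest change, and Mrpl23 (-0.75), Mrps21 (-0.73), Mrps10 (-0.58), Mrpl42 (-0.49) and Mrps28 (-0.40) the lower. Mrps21 was at 45.0 to 54.0 CPM in gastrocnemius and 27.3 to 33.0 CPM in diaphragm, without overlap. Mrps35 and Mrps9 were above, and Mrps10 and Mrps28 below, WT gastrocnemius in heart as well, and the comparisons share the gastrocnemius libraries. Without the 3 WT diaphragms of high Alb, which leaves 1 diaphragm, the median was -0.07 over members and 0.02 over all genes. Library totals alone gave 61 of 77 higher and 1 lower, against 62.4% and 9.72% of all genes, with medians of 0.40 over members and 0.55 over all genes, and put Mrpl42 at 0.02 and Mrps28 at 0.12. All 12 hepatocyte markers were higher in the WT diaphragm, with a sum of 501 to 39375 CPM against 39.0 to 141 CPM in gastrocnemius, and their part in the result was not tested.

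Between WT liver and WT heart, 28 members were higher in liver and 20 lower (edgeR), against 38.0% and 39.5% of 16338 genes. The median was 0.15 over members and -0.03 over all genes. Without WT heart 4 it was 0.08 over members and -0.01 over all genes. For comparison, 36 nuclear complex I subunits had a median of -0.88, with 32 lower and 0 higher, and the difference between the lists was not tested. Library totals alone gave 5 members higher and 47 lower in liver, against 23.7% and 55.4% of all genes, with medians of -0.44 and -0.63.

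Mrps36 had the largest fall from heart to liver. It was at 0.909, 0.696 and 1.11 CPM in WT liver, against 5.77, 5.35, 4.68 and 3.40 CPM in WT heart (-2.40, SE 0.27, adjusted p = 4.5e-05). Pseudogenes of Mrps36 are annotated, and reads shared with them can be lost or split, so its level is uncertain. Mrpl42 was at 36.7, 33.6 and 42.3 CPM in liver and 95.9 to 155 CPM in heart (-1.83, SE 0.18, adjusted p = 1.9e-05). Mrps23, specific to the mitochondrial small subunit, was at 31.3 to 36.7 CPM in liver and 67.2 to 99.9 CPM in heart (-1.33, SE 0.14). Mrps6 (-1.28, and -0.83 without WT heart 4) and Mrps25 (-0.97) were lower too. None of these overlapped between the tissues.

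In the other direction, Mrpl38, a large subunit protein specific to mitochondria, was at 79.5, 75.5 and 84.6 CPM in liver and at 34.5, 35.9, 30.1 and 25.7 CPM in heart (1.35, SE 0.12, adjusted p = 1.2e-05). Mrpl17 (1.16), Mrps18b (1.15), Mrpl52 (1.07) and Mrps7 (1.00) were higher as well. The 3 genes related to bacterial S18 gave separate values. Mrps18b (1.15, SE 0.18) and Mrps18c (0.52, SE 0.15), which sit in the small subunit, were called higher in liver, while Mrps18a, which sits in the large subunit, was at -0.22 (SE 0.21) and not called. Mrps22 was at 0.82 (SE 0.20), Mrpl58, a peptidyl-tRNA hydrolase built into the large subunit, at 0.47 (SE 0.13), Mrpl44 at -0.46 (SE 0.13) and Mrpl3 at -0.92 (SE 0.13), all called, and Mrps30 (0.15, SE 0.12) and Mrpl12 (0.31, SE 0.15) were not.

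**Figure D5:**
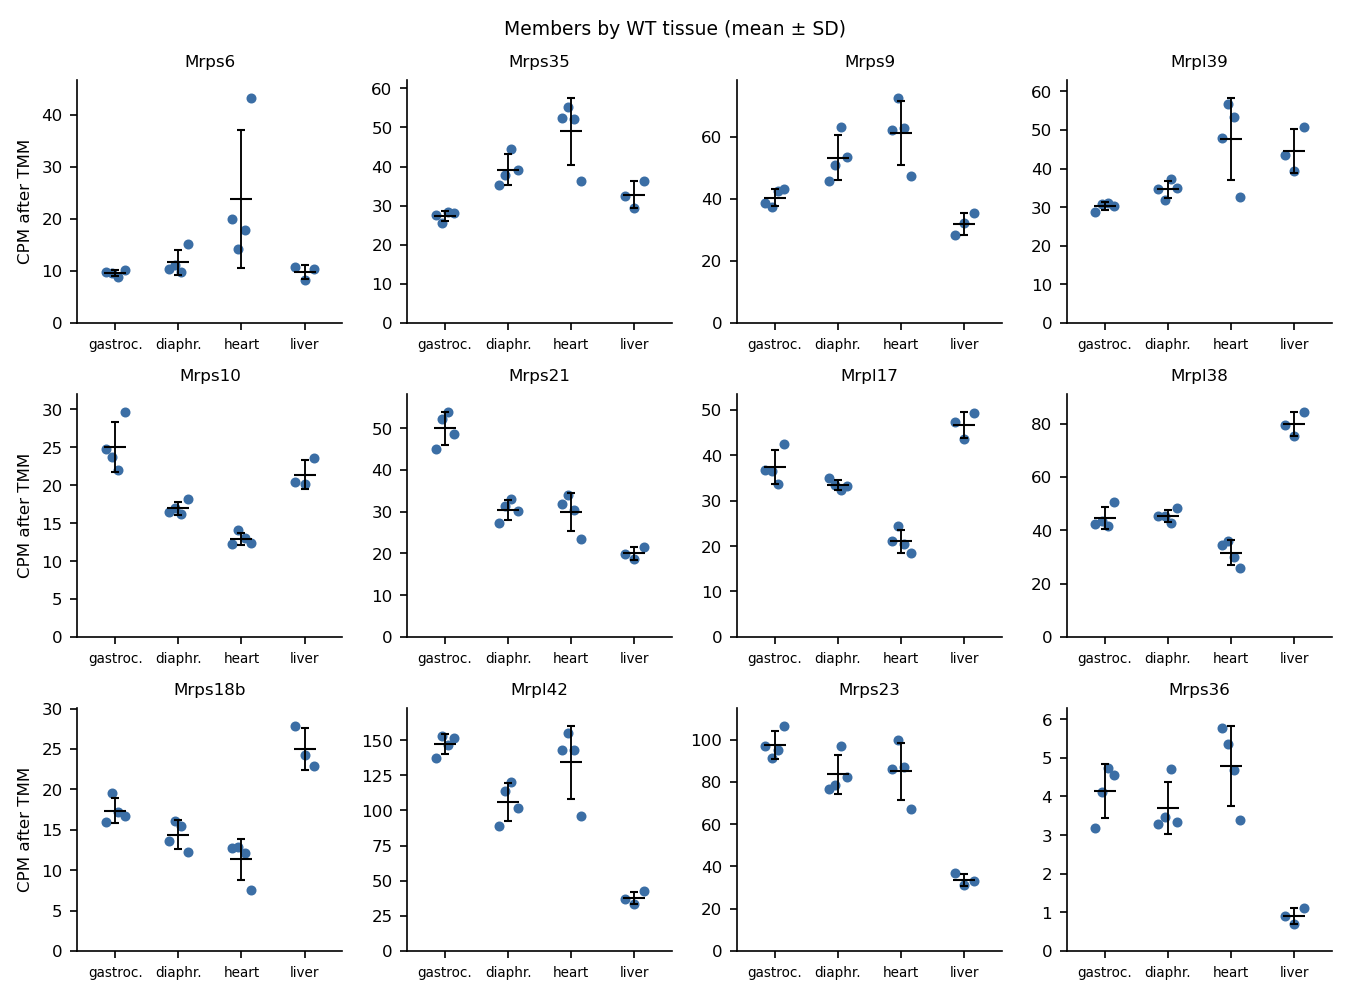
Level of 12 members in the WT libraries of the 4 tissues (CPM after TMM; points are libraries, with mean ± SD). The heart mean of Mrps6 is raised by 1 library at 43.3 CPM, the others being at 14.2 to 19.9 CPM. Mrps10 and Mrpl17 are lowest in heart, and Mrpl42, Mrps23 and Mrps36 are lowest in liver.

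Per kilobase of transcript, members of 1 ribosome differed widely in level. In WT heart the mean was highest for Mrpl42 (202 CPM per kb), Mrpl33 (115), Mrpl30 (92.2) and Mrps23 (63.9), and lowest for Mrpl53 (0.0096), Mrpl23 (2.70), Mrpl17 (2.89) and Mrpl57 (2.95). Mrpl33 shares 37.0% of its exon sequence with another gene on the same strand. The length used is that of 1 annotated transcript per gene, the longest of those marked as principal where there are any. It is 7300 bases for Mrpl17, and so long a transcript lowers the value per kilobase. The same 2 genes, Mrpl42 and Mrpl33, were highest in WT gastrocnemius (221 and 166 CPM per kb) and WT diaphragm (159 and 136 CPM per kb), but in WT liver Mrpl42 was at 56.3 CPM per kb, below Mrpl14 at 87.4 and Mrpl12 at 76.8.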

How the data were processed

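The values used are read counts per gene, deposited by the authors in 1 table with Ensembl gene identifiers. Per the labels and the methods, strand-specific mRNA libraries were trimmed with cutadapt 1.10, aligned to mm10 with STAR 2.5.3a and counted in union mode with HTSeq 0.6.1p1, which drops reads that fit several genes. This lowers counts of overlapping genes and of genes with near-identical copies.

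Symbols were matched for all 36103 identifiers. Each comparison was fitted over all genes with edgeR 4.0.16 in R 4.3.3 (quasi-likelihood test, TMM scaling, minimum count 10 in its filter, Benjamini-Hochberg adjustment over all genes tested). A call needed an adjusted p under 0.05, and SE is the log2 fold change divided by the square root of F. The scripts were tested on simulated data. The alternatives were DESeq2 1.42.0, voom in limma 3.58.1, other scalings and filters, a replicate block, and leaving out libraries. Scaling by library totals alone and the fits without diaphragms of high Alb were chosen after seeing the data.

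The members and gene lists were chosen with earlier results of these data known. The members named were those of smallest p among calls or, with none, of smallest p in each comparison, those of largest change between WT tissues in each direction, the highest and lowest per kilobase in WT heart, and 10 fixed genes. Mrpl47, Mrpl49, Mrpl18 and Mrps5 were added for the gastrocnemius to complete its 12 calls, after their values were seen.

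Depth was 24873817 to 44289343 counts per library, so that members at a few CPM rest on the fewest reads. Replicates differed by more than sampling noise in every group.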

Additional observations from a re-analysis of the deposited data

Results flagged for a closer look

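The genotype effect differed between heart and gastrocnemius for 9 members by the test of the difference itself (edgeR's quasi-likelihood test, adjusted p under 0.05). Of the 77 members 8 were higher and 1 lower, against 9.94% and 9.89% of all genes, so the share of higher calls was near the background. On the log2 scale, heart minus gastrocnemius, the differences were 0.52 for Mrpl50, 0.47 for Mrps5, 0.57 for Mrpl30, 0.61 for Mrpl42, 0.61 for Mrps27, 0.66 for Mrpl1, 0.39 for Mrpl16, 0.38 for Mrpl3 and -1.14 for Mrpl52. Without WT heart 4, 6 members were higher and 1 lower, and Mrpl16 had an adjusted p of 0.069 (edgeR). Library totals alone gave 0 members higher and 20 lower, against 405 and 6577 of 16627 genes.

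Of 38 groups of libraries checked for a single library far from the others, 3 held one, and chance gives about 1 in 20. Mrpl52 was highest in Mtm1-/y heart 2, at 6.91 CPM with the next library at 5.38 CPM. Mrps21 was lowest in Mtm1-/y gastrocnemius 3, at 36.3 CPM with the next at 40.4 CPM. Mrps28 was lowest in WT heart 3, at 19.3 CPM with the next at 21.8 CPM.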

How the results depend on the processing

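With library totals alone, the gastrocnemius genotype comparison gave 45 members higher and 0 lower, WT heart against gastrocnemius 39 and 3, WT diaphragm against gastrocnemius 61 and 1, WT liver against heart 5 and 47, and the heart minus gastrocnemius difference 0 and 20. Values that changed sign under it were, in the gastrocnemius, Mrpl1 (0.0137), Mrpl16 (0.0442), Mrpl30 (0.00844), Mrpl51 (0.0390), Mrps21 (0.0151) and Mrps27 (0.0311), in the heart minus gastrocnemius difference Mrpl16 (-0.0147), and in diaphragm against gastrocnemius Mrpl42 (0.0173) and Mrps28 (0.120). Beyond the scaling itself, the cause was not tested. One fit over all 30 libraries gave 7 members lower in the gastrocnemius, against 7.57% of all genes. It gave 12 lower in diaphragm against gastrocnemius and 0 lower for the difference, against 3853 and 931 of 18498 genes. Asking also for an absolute log2 fold change above 1 left 0 lower in the gastrocnemius, 1 higher and 1 lower in heart against gastrocnemius, 0 and 0 in diaphragm against gastrocnemius, 4 and 4 in liver against heart, and 0 higher for the difference. The share of all genes passing this threshold was not counted, so these counts have no background beside them. DESeq2 gave 4 higher in heart against gastrocnemius, against 26.8% of all genes. For the difference DESeq2 gave 15 higher and voom 13, against 13.0% and 12.6% of all genes. No filter gave 3 higher and 10 lower in diaphragm against gastrocnemius, against 5442 and 3925 of 31085 genes. Leaving out diaphragms of high Alb left 1 WT library and gave a members' median of -0.07 there.

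Leaving out each library in turn gave 0 to 2 members higher in the gastrocnemius (2 without WT 4) and 6 to 17 lower. There were 6 lower without Mtm1-/y 1 or 3, 7 without WT 3 or 4, and 17 without Mtm1-/y 2. Over all genes, 1581 to 2121 were higher and 1743 to 2159 lower, of 15615 to 15850. The members' share of lower calls was below that of all genes in each fit except that without Mtm1-/y 2 (22.1% against 13.7%). Heart against gastrocnemius had 4 to 9 members higher and 32 to 43 lower, against 32.9% to 36.3% and 30.4% to 34.5% of all genes. Diaphragm against gastrocnemius had 4 to 8 and 14 to 22, against 4414 to 5480 and 3815 to 4683 of 16090 to 16809 genes. Liver against heart had 25 to 29 and 15 to 25, against 5820 to 6285 and 6016 to 6443 of 16003 to 16871 genes. The heart minus gastrocnemius difference had 4 to 16 higher (4 without Mtm1-/y heart 1, 16 without WT heart 2) and 0 to 2 lower. Its counts over all genes were 1169 to 1901 and 1187 to 1981 of 16856 to 16931. The diaphragm, heart and liver genotype comparisons and the heart minus diaphragm difference stayed at 0 called members in each such fit. Few genes of any kind were called there, at most 209 of 17860 in a direction. The members' median ran from -0.13 to -0.06 in the gastrocnemius, -0.08 to 0.0014 in the diaphragm, 0.03 to 0.17 in the heart, -0.13 to -0.05 in the liver, 0.08 to 0.22 in liver against heart and 0.11 to 0.31 for the heart minus gastrocnemius difference.

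The labels do not say which mouse gave which tissue. The deviations of same-numbered libraries had r from -0.04 to 0.087 between genotypes in the gastrocnemius, -0.58 to 0.40 in the diaphragm, -0.44 to 0.20 in the heart and -0.04 to 0.23 in the liver. Between WT tissues r was 0.03 to 0.16 for heart and gastrocnemius (other numbers -0.13 to 0.04), -0.09 to 0.23 for diaphragm and gastrocnemius, and 0.0063 to 0.031 for liver and heart (other numbers -0.05 to 0.05). In no comparison was every same-numbered r above 0.1, so the numbers were not taken to pair the samples. Same-numbered r were nevertheless all positive for WT heart and gastrocnemius and for WT liver and heart. Whether those libraries share mice is not known, and the main fits treated them as independent. With the replicate number as a block, the gastrocnemius gave 0 higher and 9 lower, against 12.2% and 13.2% of all genes. The heart minus gastrocnemius difference gave 6 and 1, against 1390 and 1355 of 16627 genes.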

Other observations

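Across the 4 genotype comparisons, none of the lists of other mitochondrial translation genes held a call outside the gastrocnemius (edgeR), where at most 0.0119% of all genes were called in a direction. The difference of genotype effects between heart and gastrocnemius was called higher in heart for 7 of the 20 mitochondrial aminoacyl-tRNA synthetases and amidotransferase subunits, 6 of the 7 tested mitochondrial mRNAs, 3 of the 12 translation factors, 3 of the 26 assembly factors and 2 of the 5 ribosomal proteins with other names, and called lower for 0 of them. Over all genes, 9.94% were called higher and 9.89% lower, so that 3 of 26 is near that share. All of these comparisons share the gastrocnemius and heart libraries of the member results.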
